A study of Mus musculus with 35 samples.

Results

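Genes shared between brain and testis were defined as those higher in both organs than in heart, colon and ovary of adult C57BL/6J mice. In the rRNA-depleted, strand-specific RNA-seq libraries, 4543 of 29456 tested genes were kept by this rule, out of 55356 genes in the deposited count matrix. A gene was kept when the equal-weight mean of brain and testis exceeded the equal-weight mean of heart, colon and ovary, with an edgeR quasi-likelihood Benjamini-Hochberg adjusted *P* under 0.05, and when brain and testis were each above each of the other 3 tissues. A stricter set of 1538 genes also passed each of the 6 single tests of brain or testis against heart, colon or ovary, taking the largest of the 6 *P* values and adjusting it over all tested genes. The members were chosen by these 5 tissues, so their levels and differences in them are given as a description.

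The study profiled brain, cerebellum, heart, colon and gonad of both sexes to measure transcription across organs. No treatment or mutation was applied, and every animal was an adult of the same inbred strain. The fit used 23 libraries: 3 male and 3 female brain libraries, 3 testis (male gonad), 2 male and 3 female heart, 3 male and 3 female colon, and 3 ovary (female gonad). The 6 cerebellum libraries, 3 male and 3 female, stayed outside the fit and are reported beside it. The labels do not say which libraries came from the same animal, so *P* values measure the spread between libraries, which may partly be technical.

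Brain and testis are both known for unusually broad transcription. Neurons and male germ cells both build long microtubule-based structures, the axon and dendrite in the one and the sperm tail in the other, and both use kinesin motors, tubulin modification and regulated exocytosis at the synapse and the acrosome. Ciliated ependymal cells line the brain ventricles, and the sperm tail is itself a modified cilium.

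Libraries of the 5 tissues held 11742417 to 36194255 counts, lowest in colon and highest in brain, and those of cerebellum held 19075669 to 27087240. Female heart replicate 3 stood apart from the other heart libraries, with a TMM factor (the trimmed mean of M-values scaling used by edgeR) of 1.09 against 0.617 to 0.746. Without it 4277 genes were kept and 1532 passed all 6 tests. Levels below are FPKM, the deposited counts scaled to the library total and to exon length in kilobases, and differences are fitted log2 differences with their standard error (SE). The fitted differences use TMM scaling and the FPKM do not, so the 2 scales can differ. A level in a bulk organ cannot separate the number of expressing cells from the RNA in each.

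The summed level of 6 neuron markers was 1220 to 1680 FPKM in brain and 4.03 to 4.77 FPKM in testis, against 8.31 to 12.3 FPKM in colon and 2.39 to 8.02 FPKM in heart. Cardiomyocyte markers summed to 7800 to 11100 FPKM in heart and colon epithelium markers to 8430 to 16300 FPKM in colon, with at most 32.9 and 8.09 FPKM in any other organ. The summed level of 6 spermatid markers was 20100 to 24200 FPKM in testis and 0.181 to 1.29 FPKM in brain. The spermatid sum reached 27.4 FPKM in 1 colon library. Granulosa cell markers summed to 112 to 197 FPKM in ovary and to at most 9.07 FPKM in testis. The sum of 4 oocyte markers did not set ovary apart, at 25.6 to 52.9 FPKM against 127 to 241 FPKM in heart. *Zp3*, 1 of the 4, had 0 counts in heart, so the heart sum came from the others. Which locus gave it was not examined. Leydig cell markers were high in both gonads, at 933 to 1340 FPKM in testis and 1210 to 2190 FPKM in ovary, and 0 of the 4 were kept.

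Of all tested genes, 10750 (36.5%) were called higher in brain and testis together and 7798 (26.5%) were called lower. The 4543 kept genes were 15.4% of those tested. The remaining 6207 genes called higher were not above in both organs: 2292 were above heart, colon and ovary in brain but not testis, 3338 in testis but not brain, and 577 in neither. The mirror rule, with brain and testis each below the other 3 tissues, took 3464 genes (11.8%). The balance turned over under upper-quartile scaling, with 3372 genes kept and 5362 below. The 1538 genes past all 6 tests were 5.22% of those tested, and their margin, the smallest of a gene's 6 fitted log2 differences, had a median of 2.26. The margin was at least 1 in 1258 of them and at least 3 in 548. In 1439 of the 1538 genes, all 9 brain and testis libraries lay above all 14 libraries of the other tissues, which held for 1833 (6.22%) of all tested genes. By the same rule brain and ovary shared 2242 kept genes, of which 263 passed all 6 tests, and testis and ovary shared 3046, of which 347 passed. No other pair was counted, and these pairs were counted under TMM scaling alone.

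**Figure D1:**
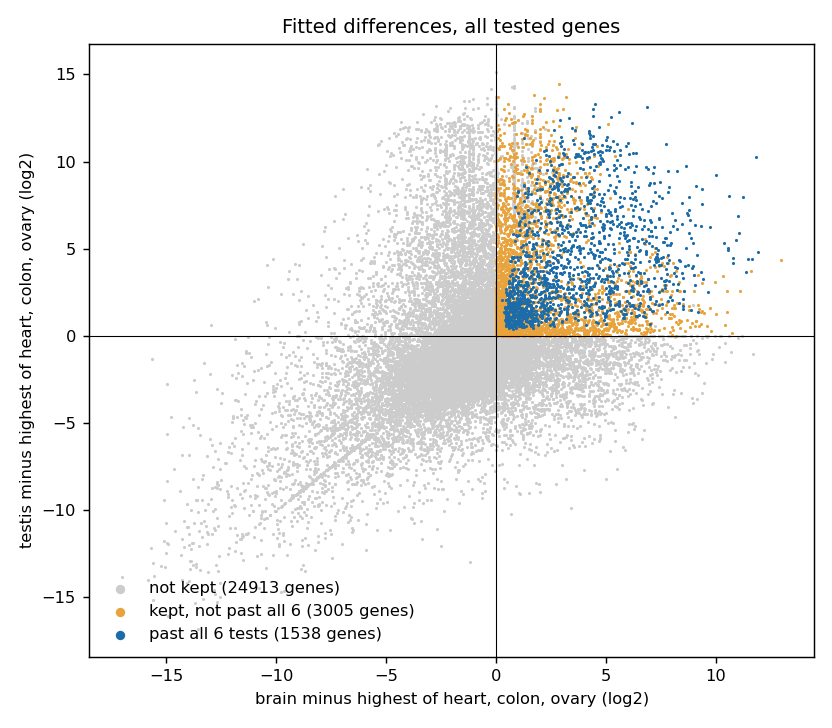
Each point is a tested gene, placed by the fitted log2 difference of brain (horizontal) and testis (vertical) from the highest of heart, colon and ovary. The 1538 genes past all 6 tests sit inside the upper right quadrant, and the other kept genes share that quadrant, many of them near its edges, where 1 of the organs is close to the rest.

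Some kept genes were high in 1 organ and at or near 0 in the other. *Prss39*, a serine protease of the testis, was at 126 to 140 FPKM in testis and at 0 to 0.0244 FPKM in brain, and it was kept with a margin of 0.09. *Cacng2*, a subunit that carries AMPA receptors to synapses, was at 9.01 to 10.4 FPKM in brain and was counted in 1 of 3 testis libraries at 0.0128 FPKM, with a margin of 0.14. At the edge of the rule, *Mkln1os*, *Cryzl1* (a locus shared with *Atp5o*) and *Gm38260* had margins that round to 0 and were kept (*Cryzl1* was not called under upper-quartile scaling, log2 0.16, edgeR adjusted *P* = 0.165), whereas *Ppia*, *Pmp2* and *Morn2* fell just below 0 and were not. *Morn2* reached 360 to 434 FPKM in testis, but its brain range of 22.2 to 40.1 FPKM overlapped the heart range of 16.4 to 28.1 FPKM. The genes described below passed all 6 tests unless stated.

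Among coding genes at 5 FPKM or more in both organs, the 12 with the largest margins were *Mlc1*, *Fam135b*, *Nol4*, *Kcnj9*, *Ttbk1*, *Rfx4*, *Kcnj6*, *Ifitm7*, *Elfn2*, *Amer2*, *Ddx25* and *Oprl1*. *Mlc1* (chr15:88955884-88982701, mm10), a membrane protein of astrocytes, ranged from 21.3 to 27.7 FPKM in brain (median 24.6). In the 3 testis libraries *Mlc1* was at 6.62, 7.18 and 5.51 FPKM. No heart, colon or ovary library exceeded 0.0439 FPKM, and its margin was 10.24. Its cerebellum range, 34.5 to 48.6 FPKM, lay above the brain range. Testis was lower than brain by a fitted log2 difference of -1.58 ± 0.236 (edgeR adjusted *P* = 8.77e-06).

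*Fam135b* (chr15:71445676-71671419) was at 7.09 to 9.08 FPKM in brain and at 14.0, 14.7 and 13.6 FPKM in testis. The other 14 libraries stayed at or below 0.0522 FPKM. *Nol4*, which encodes nucleolar protein 4, was at 11.3 to 19.1 FPKM in brain and at 8.59, 8.97 and 8.31 FPKM in testis. All 5 heart libraries were at 0 for *Nol4*, and colon and ovary stayed at or below 0.0425 FPKM.

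*Kcnj9* and *Kcnj6* encode inwardly rectifying potassium channel subunits opened by G proteins. *Kcnj9* (chr1:172320498-172329338) was at 8.67 to 12.7 FPKM in brain and at 13.6, 12.2 and 14.5 FPKM in testis, so the ranges of the organs overlapped. *Kcnj6* (chr16:94761270-94856683) was higher in brain, at 22.4 to 30.9 FPKM, than in testis, at 5.24, 6.46 and 5.64 FPKM. *Oprl1*, the nociceptin receptor, was at 5.56 to 7.89 FPKM in brain and at 11.0, 11.7 and 10.4 FPKM in testis. *Pnoc*, which encodes the precursor of nociceptin, was at 1.58 to 3.86 FPKM in brain and 0.586, 0.375 and 0.618 FPKM in testis, and no other library exceeded 0.367 FPKM. The exons of *Oprl1* overlap *Lkaaear1*, those of *Kcnj9* overlap *Gm36937* and those of *Ifitm7* overlap *2900011O08Rik*, each on the opposite strand, and those of *Mlc1* overlap *Gm8702* on the same strand. Whether reads were counted by strand is not given in the sources used here, so the levels of these genes are uncertain to that extent. Among genes described below, the same holds for opposite-strand overlaps of *Map2*, *Atat1*, *Tub*, *Ift57*, *Celf5*, *Kctd16*, *Trim46*, *Dscaml1*, *Cadm2*, *Prdm8*, *Chd5*, *Smpd3*, *Ypel1*, *Uchl1*, *Rfx1*, *Rfx5*, *Rfx7*, *Gm18609*, *Camk1*, *Ptbp3*, *Nectin2* and *H1f0*, and for same-strand overlaps of *Ttll8*, *Ift22* and *Kif1c*.

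*Ddx25*, a gonadotropin-regulated RNA helicase of germ cells, had the highest testis level of the 12, at 228, 230 and 224 FPKM. It was also at 24.8 to 32.3 FPKM in brain and did not exceed 0.636 FPKM in heart, colon or ovary. *Elfn2*, a synaptic leucine-rich repeat protein, and *Amer2*, a membrane protein that binds APC, were each counted at 2 loci, and the locus with more counts is given. *Elfn2* was at 7.57 to 12.2 FPKM in brain and at 6.5, 7.11 and 6.46 FPKM in testis, and the fitted difference between the organs was -0.11 ± 0.223 (SE, edgeR adjusted *P* = 0.67). *Amer2* was at 11.4 to 14.1 FPKM in brain and at 14.2, 17.5 and 14.5 FPKM in testis. *Ifitm7*, of the interferon-induced transmembrane family, was at 8.86 to 12.3 FPKM in brain and at 9.32, 10 and 9.13 FPKM in testis. For each of these genes the 9 brain and testis libraries lay above the other 14.

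**Figure D2:**
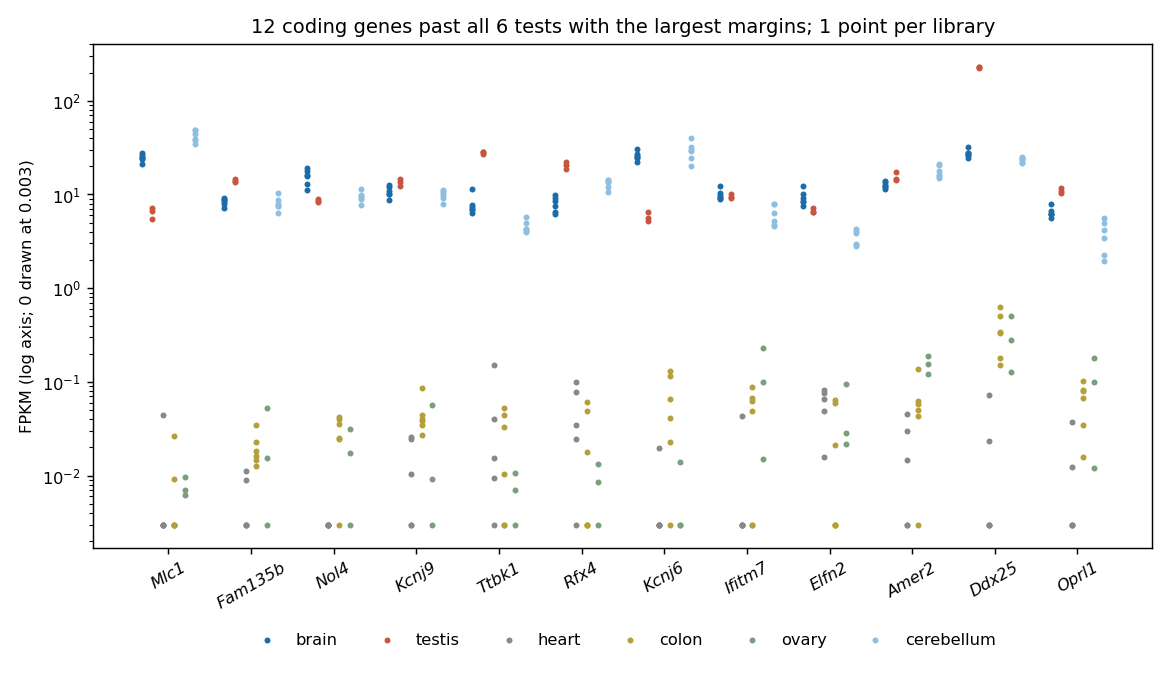
FPKM (log axis) of the 12 coding genes with the largest margins in each of 29 libraries, colored by tissue, with values of 0 drawn at 0.003. Brain, testis and cerebellum points lie at least at 1.97 FPKM, and heart, colon and ovary points lie at or below 0.636 FPKM.

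*Egr4*, an immediate-early zinc finger gene that falls below the 5 FPKM limit and was picked after its values were seen, had 0 counts in all 14 heart, colon and ovary libraries. It was at 2.11 to 3.62 FPKM in brain and at 1.26, 1.38 and 1.07 FPKM in testis, its lowest library being at least 9.03-fold higher than the level that 3 counts would give in the smallest of those 14 libraries. Such empty genes numbered 76 of the 1538 (4.94%), against 5.42% of all tested genes. In cerebellum *Egr4* was at 0.0687 to 0.634 FPKM, below every brain and testis library.

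RFX transcription factors bind the X-box of ciliary gene promoters and are known to act in ciliated cells and in spermatids. *Rfx4* (chr10:84756061-84906537) was at 6.2 to 9.76 FPKM in brain and at 20.6, 22.0 and 18.6 FPKM in testis. It did not exceed 0.0994 FPKM in heart, colon or ovary. *Rfx3*, described here after its values were seen, was at 23.7 to 29 FPKM in brain and at 31.7, 30.8 and 31.2 FPKM in testis, and the highest other library was at 5.64 FPKM in ovary. The other 4 family members looked up in the same way (*Rfx1*, *Rfx2*, *Rfx5* and *Rfx7*) were not kept. *Rfx2* reached 82.4 to 90.6 FPKM in testis but stayed at 0.77 to 1.63 FPKM in brain, overlapping heart, colon and ovary. *Rfx1* was likewise high in testis alone, at 16.7 to 19.8 FPKM, and *Rfx5* and *Rfx7* were not called (log2 0.10 ± 0.0996, adjusted *P* = 0.433, and 0.00 ± 0.109, adjusted *P* = 1.0, edgeR). Under upper-quartile scaling *Rfx5* turned to -0.30 and *Rfx7* to -0.41 (adjusted *P* = 0.0179 and 0.00522, edgeR), a scaling that moved the median of all genes from 0.29 to -0.11. *Foxj1*, the forkhead factor of motile cilia, also looked up in this way, was kept and passed all 6 tests, at 2.27 to 7.99 FPKM in brain and 16.2, 23.3 and 17.3 FPKM in testis.

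RefSeq promoters (GRCm38.p6, 250 bases before to 50 after each start) were searched for 4 motifs. The letters GTTGCCATG, which make up only an arm of the X-box and not the whole site, are called the RFX motif here and were read on both strands. They were in a promoter of 27 of the 948 coding genes past all 6 tests that matched RefSeq by symbol (2.85%). They were in 50 of 2312 kept coding genes (2.16%) and in 117 of 14004 tested coding genes (0.835%). Counted by promoter, the shares were 2.61% of 1264, 1.89% of 3011 and 0.735% of 17542, against 0.773% of all 32851 promoters. The cAMP response element TGACGTCA, a palindrome, differed less, in 2.69% of the promoters of genes past all 6 tests, 2.55% of those tested and 1.79% of all. The GC box GGGCGG, on either strand, was in 52.4% against 53.8% of tested coding promoters, but by gene in 62.1% against 58.9%, and TATAAA, on the gene's own strand, was in 3.96% against 5.43%. None of the 4 motifs contains another, and a match is a description of letters and not a bound site.

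Promoters of 4 members are shown with these letters, 5′ to 3′ on the gene's strand, because they carry the letters counted above in genes described here. Capitals mark the RFX motif in *Ccdc184* (chr15:98167556-98167855, + strand) and *Lrp8* (chr4:107830703-107831002, + strand), and the cAMP response element in *Kif17* (chr4:138262001-138262300, + strand) and *Ift57* (chr16:49699044-49699343, + strand).
Ccdc184: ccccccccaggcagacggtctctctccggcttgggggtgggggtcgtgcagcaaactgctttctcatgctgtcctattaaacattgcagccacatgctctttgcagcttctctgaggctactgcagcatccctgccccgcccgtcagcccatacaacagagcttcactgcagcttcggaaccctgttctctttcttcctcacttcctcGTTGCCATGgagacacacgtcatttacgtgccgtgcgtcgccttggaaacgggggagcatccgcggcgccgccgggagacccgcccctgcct
Lrp8: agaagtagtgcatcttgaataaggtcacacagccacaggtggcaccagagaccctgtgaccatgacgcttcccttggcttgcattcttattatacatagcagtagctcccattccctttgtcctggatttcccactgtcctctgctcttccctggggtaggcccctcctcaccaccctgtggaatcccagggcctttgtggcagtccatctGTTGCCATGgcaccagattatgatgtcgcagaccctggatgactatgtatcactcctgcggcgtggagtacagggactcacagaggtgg
Kif17: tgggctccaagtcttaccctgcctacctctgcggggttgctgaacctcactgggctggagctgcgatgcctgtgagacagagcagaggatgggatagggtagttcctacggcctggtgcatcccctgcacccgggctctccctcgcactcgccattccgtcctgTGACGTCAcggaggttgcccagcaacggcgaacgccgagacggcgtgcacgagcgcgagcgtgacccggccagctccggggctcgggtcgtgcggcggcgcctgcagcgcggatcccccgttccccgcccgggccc
Ift57: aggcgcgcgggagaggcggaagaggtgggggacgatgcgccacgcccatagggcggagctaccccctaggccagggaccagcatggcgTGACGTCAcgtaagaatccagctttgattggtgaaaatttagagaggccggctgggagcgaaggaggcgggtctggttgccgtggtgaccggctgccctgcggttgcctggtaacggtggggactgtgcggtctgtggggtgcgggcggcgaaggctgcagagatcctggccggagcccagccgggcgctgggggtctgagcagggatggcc

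The motif begins at position -42 in *Ccdc184* and at position -39 in *Lrp8*, counted from the transcription start, and the response element begins at -86 in *Kif17* and at -162 in *Ift57*. *Ccdc184*, a coiled-coil gene, had brain levels of 8.44 ± 2.38 FPKM (SD, n = 6) and testis levels of 16.1 ± 1.73 FPKM (SD, n = 3), and no other library exceeded 0.663 FPKM. *Lrp8*, the reelin and selenoprotein receptor, had brain levels of 8.92 ± 0.88 FPKM (SD, n = 6) and testis levels of 7.64 ± 1.4 FPKM (SD, n = 3), and ovary was the highest of the others at up to 1.44 FPKM. Promoters on chromosome 18 were in the motif counts but were left out of the list that follows. The other members at 5 FPKM or more in both organs with the RFX motif were *1110051M20Rik*, *Wdr47*, *Mapre3*, *Pafah1b2*, *Chn1*, *Gde1*, *Cep112*, *Ccdc181* and *Tbcel*.

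The pathways were then read through 12 gene lists, drawn up from known functions of neurons, spermatids and cilia with earlier results of these data in view, so their counts are not independent evidence. The share of kept genes was above the 15.4% of all tested genes in each of the 12 lists, from 21.6% for vesicle docking to 53.7% for intraflagellar transport. The share past all 6 tests was above 5.22% in all but the peptide precursor list (3.77%, 2 genes). With DESeq2 that list had 4 genes past all 6 tests (7.55%, against 6.24% of all tested genes), and under upper-quartile scaling 0. Upper-quartile scaling left 1017 genes past all 6 tests in all, and moved 5 other lists by over 1.5 times, as given with each. The median log2 difference of the lists ran from 0.82 to 3.26, against 0.29 over all tested genes.

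**Figure D3:**
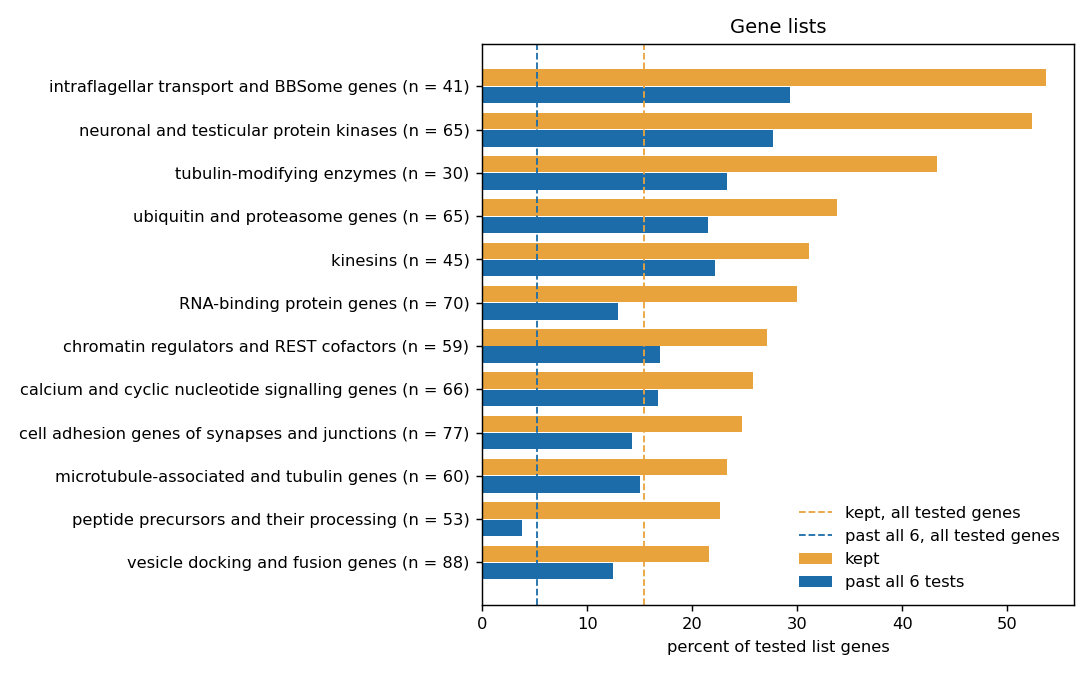
Bars give the percentage of tested genes in each list that were kept or that passed all 6 tests, and dashed lines give the same percentages over all tested genes, 15.4% and 5.22%. Intraflagellar transport genes and kinases have the longest bars, and the peptide precursor list is the only one whose bar for all 6 tests ends before the line.

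Intraflagellar transport carries cargo along the axoneme, and the BBSome sorts membrane proteins into and out of cilia. Of 41 genes of these complexes, 38 were called higher, 22 were kept and 12 passed all 6 tests, or 6 under upper-quartile scaling. The 12 were *Ift22*, *Ift57*, *Ift88*, *Cluap1* (a locus shared with *Gm20695* and *Naa60*), *Wdr35*, *Bbs1*, *Bbs4*, *Bbs7*, *Bbs9*, *Arl6*, *Tulp4* and *Tub*. *Bbs9*, a BBSome subunit, was at 27.1 to 32.8 FPKM in brain and at 95.7, 119 and 117 FPKM in testis, and no other library exceeded 10.1 FPKM. *Ift57* was at 23.4 to 34.8 FPKM in brain and at 38.3, 38.6 and 34.5 FPKM in testis, against 12.5 to 17.1 FPKM in ovary and lower levels in heart and colon. *Ift22*, a small GTPase-like subunit, was at 5.65 to 7.55 FPKM in brain and at 10.1, 10.9 and 10.1 FPKM in testis, and the other tissues stayed at or below 2.86 FPKM. *Tub*, which brings receptors into cilia, leaned to brain, at 14.0 to 18.6 FPKM against 1.26, 1.5 and 1.3 FPKM in testis, and it no longer passed all 6 tests against a 2-fold difference. *Mkks* (a locus shared with *AL731706.1* and *AL731706.2*), a chaperonin-like gene of BBSome assembly, was the 1 gene of the list called lower, at 8.68 to 11.9 FPKM in brain, 3.41 to 4.26 FPKM in testis and 15.0 to 18.8 FPKM in heart.

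Markers of ependyma are given beside these genes. All 4 of them (*Foxj1*, *Ccdc153*, *Tmem212* and *Rsph1*) were kept, and their summed level was 7.74 to 32.4 FPKM over the 6 brain libraries and 482 to 547 FPKM in testis. In heart, colon and ovary the sum stayed at or below 4.03 FPKM, and *Ccdc153* and *Tmem212* were at 0 in heart. *Rsph1*, a radial spoke gene that did not pass all 6 tests against a 2-fold difference, carried the testis sum at 464 to 523 FPKM, whereas *Tmem212* stayed at 0 to 0.182 FPKM there. The part of ependymal cells in the brain levels was not tested.

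Kinesins walk along microtubules. Of 45 tested, 29 were called higher, 14 were kept and 10 passed all 6 tests. Of the 4 genes of heterotrimeric kinesin-2, the motor of outward transport in cilia, *Kifap3*, *Kif3a* and *Kif3b* were among the 10, whereas *Kif3c*, at a mean of 36.2 FPKM in brain and 2.56 FPKM in testis, was not kept. *Kifap3*, its adaptor, was at 80.6 to 104 FPKM in brain and at 97.6, 91.6 and 79.0 FPKM in testis, and ovary was next at 13.3 to 15.8 FPKM. The motor subunits, looked up after their values were seen, had smaller margins, 1.58 for *Kif3a* and 0.49 for *Kif3b*. *Kif17*, a kinesin of dendritic and ciliary transport counted at 2 loci, was at 4.02 to 7.74 FPKM in brain and at 149, 171 and 167 FPKM in testis, and no other library exceeded 1.12 FPKM. *Kif5c*, a neuronal motor, leaned the other way, at 99.8 to 119 FPKM in brain and at 4.56, 3.87 and 3.96 FPKM in testis. *Kif19a*, which limits cilium length, was low in both organs, at 1.38 to 2.41 FPKM in brain and at 4.45, 3.93 and 4.23 FPKM in testis. *Kif1c* and *Kif13a* were called lower (log2 differences -1.26 ± 0.146 and -1.2 ± 0.111).

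Of 30 tubulin-modifying enzymes, 26 were called higher, 13 were kept and 7 passed all 6 tests. *Atat1*, the tubulin acetyltransferase, was at 15.8 to 21 FPKM in brain and at 18.7, 21.2 and 18.9 FPKM in testis, and the highest other library was at 7.41 FPKM in ovary. *Ttll11*, a polyglutamylase, was at 10 to 14.4 FPKM in brain and at 14.8, 15.2 and 13.1 FPKM in testis, and no other library exceeded 0.683 FPKM. *Tpgs2*, a subunit of the polyglutamylase complex, was at 13.4 to 15.3 FPKM in brain and at 37.6, 41.0 and 36.5 FPKM in testis. *Ttll8*, a glycylase, was at 32.9 to 36 FPKM in testis and at only 0.223 to 0.457 FPKM in brain. *Ttll12* and *Agbl4* (a locus shared with *Bend5*) were called lower (log2 differences -0.60 ± 0.123 and -0.80 ± 0.294).

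Among 60 microtubule-associated and tubulin genes, 49 were called higher but only 14 were kept and 9 passed all 6 tests, or 5 under upper-quartile scaling. *Map2*, the dendritic microtubule-associated protein, was at 128 to 178 FPKM in brain and at 16.3, 17.1 and 15.5 FPKM in testis, above a maximum of 1.79 FPKM elsewhere. *Tubb3* (a locus shared with *Gm20388*), the tubulin used as a neuronal marker, was at 131 to 183 FPKM in brain and at 17.4, 17.2 and 17.7 FPKM in testis, and ovary reached 7.4 FPKM. *Dpysl5*, a collapsin response mediator, was higher in testis, at 16.5, 16.6 and 14.8 FPKM, than in brain, at 3.27 to 6.57 FPKM. *Map7d2*, on the X chromosome, was at 38.4 to 52.7 FPKM in brain and at 0.806, 0.863 and 0.338 FPKM in testis, and its lowest testis library lay within the range of the other tissues. It no longer passed all 6 tests under upper-quartile scaling, with male brain, heart and colon alone, or against a 2-fold difference. *Tubb6* and *Map7d1* were called lower (log2 differences -1.99 ± 0.139 and -0.75 ± 0.166).

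Protein kinases known from neurons or testis were chosen for that expression, so their counts describe the choice: of 65 tested, 58 were called higher, 34 were kept and 18 passed all 6 tests. *Ttbk1* (chr17:46441671-46447400), which phosphorylates tau, was at 6.29 to 11.5 FPKM in brain (median 7.18) and at 27.3, 28.6 and 28.1 FPKM in testis, and no other library exceeded 0.152 FPKM. *Hipk4*, a kinase of spermatids, was at 3.93 to 7.6 FPKM in brain and at 31.8, 36.2 and 35.8 FPKM in testis. *Mapk8ip2*, a JNK scaffold, was at 34.7 to 43.1 FPKM in brain and at 13.3, 13.4 and 14.8 FPKM in testis. *Cdkl4* was at 3.7 to 4.82 FPKM in brain and at 9.52, 9.54 and 8.45 FPKM in testis. In *Hipk4*, *Mapk8ip2* and *Cdkl4* the other 14 libraries stayed at or below 0.804 FPKM. *Mak* and *Mok*, related kinases of ciliated cells looked up after their values were seen, also passed, with margins of 2.44 and 1.74. *Ulk1* and *Ick* were called lower, with log2 differences of -0.61 ± 0.138 and -0.20 ± 0.0818, and the call of *Ick* (adjusted *P* = 0.0409, edgeR) was lost without the filter on low counts (adjusted *P* = 0.0637).

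Of 88 tested vesicle docking and fusion genes, 68 were called higher, 19 were kept and 11 passed all 6 tests, or 5 under upper-quartile scaling, and brain exceeded testis in 17 of the 19 kept. *Rims2*, an active zone scaffold, was at 32.6 to 39.2 FPKM in brain and at 6.92, 6.81 and 5.81 FPKM in testis, and no other library exceeded 0.927 FPKM. *Sv2c*, a synaptic vesicle protein, was at 5.05 to 7.49 FPKM in brain and at 2.04, 2.25 and 2.74 FPKM in testis. *Ppfia2* and *Erc2*, of the active zone, were at 1.4 to 1.74 FPKM and 0.461 to 0.793 FPKM in testis, against 17.1 to 27.0 FPKM and 28.8 to 57.5 FPKM in brain. *Erc2* no longer passed all 6 tests without testis replicate 1, under upper-quartile scaling, with female brain, heart and colon alone, or against a 2-fold difference. *Doc2g* (a locus shared with *Gm49405*) and *Stx3* were called lower (log2 differences -3.17 ± 0.328 and -2.14 ± 0.118), with *Doc2g* at 72.7 to 123 FPKM in heart and *Stx3* at 27.4 to 42.1 FPKM in colon.

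Calcium and cyclic nucleotide signalling gave 17 kept genes and 11 past all 6 tests of 66. *Camkv* (a locus shared with *Traip*), a kinase-like calmodulin-binding gene, was at 56.0 to 93.6 FPKM in brain and at 1.32, 1.14 and 1.08 FPKM in testis, and the others stayed at or below 0.28 FPKM. *Hpcal4* was at 115 to 203 FPKM in brain and at 2.38, 2.59 and 2.42 FPKM in testis. *Caln1* was at 19.4 to 29.2 FPKM in brain and at 0.393 to 0.598 FPKM in testis. *Plcz1*, the sperm phospholipase that triggers calcium waves in the egg, was the reverse, at 51.0 to 63.4 FPKM in testis and at 0.242 to 0.586 FPKM in brain. *Crem*, the response element modulator of spermatids, looked up after its values were seen, was kept but did not pass all 6 tests, at 106 to 127 FPKM in testis and 5.72 to 7.59 FPKM in brain against up to 5.65 FPKM in ovary. *Camk2d* and *Camk1* were called lower (log2 differences -1.03 ± 0.103 and -0.80 ± 0.105).

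Cell adhesion genes of synapses and junctions gave 19 kept and 11 past all 6 tests of 77. *Dscaml1* was at 3.05 to 4.26 FPKM in brain and at 2.43, 2.36 and 2.41 FPKM in testis, and no other library exceeded 0.108 FPKM. *Cntnap2*, a neurexin-family adhesion gene, was at 10.5 to 14.3 FPKM in brain and at 6.63, 6.72 and 5.76 FPKM in testis. *Chl1*, of the L1 family, was higher in testis, at 143, 146 and 125 FPKM, than in brain, at 25.2 to 32.9 FPKM, and colon was next at 2.16 to 3.57 FPKM. *Cadm2* was at 14.3 to 43.6 FPKM in brain and at 2.35, 2.99 and 2.33 FPKM in testis. *Slitrk6* and *Nectin2* were called lower (log2 differences -2.87 ± 0.595 and -1.65 ± 0.13).

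RNA-binding proteins gave 21 kept and 9 past all 6 tests of 70, led by *Ddx25*, with 4 past all 6 under upper-quartile scaling and 13 with DESeq2. *Celf3* was at 15.2 to 22.1 FPKM in brain and at 4.25, 5.46 and 4.01 FPKM in testis, and *Celf5* at 28.0 to 42.8 FPKM in brain and at 2.0 to 2.52 FPKM in testis. *Elavl3* (a locus shared with *Gm49318*), a neuronal RNA-binding gene, was near the limit in testis, at 0.504 to 0.796 FPKM against up to 0.621 FPKM in colon, and did not pass without testis replicate 2, without male colon replicate 1, or under the 3 alternatives that *Erc2* failed. *Ptbp2*, a neuronal splicing regulator looked up after its values were seen, had a testis minus brain difference of 0.23 on the log2 scale and a margin of 1.57. *Pabpc4* and *Ptbp3* were called lower (log2 differences -2.23 ± 0.155 and -1.72 ± 0.146).

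Ubiquitin and proteasome genes gave 22 kept and 14 past all 6 tests of 65, or 9 under upper-quartile scaling. *Kctd16*, an auxiliary subunit of GABA-B receptors, was at 12.6 to 17.9 FPKM in brain and at 6.32, 6.49 and 5.87 FPKM in testis. *March11*, a membrane ubiquitin ligase, was at 117 to 121 FPKM in testis and 2.16 to 3.73 FPKM in brain, and no other library exceeded 0.305 FPKM. *Trim46*, which organizes microtubules in the proximal axon, was at 8.84 to 13.4 FPKM in brain and at 4.8, 4.45 and 4.9 FPKM in testis. *Uchl1*, the deubiquitinase often used to mark neurons and spermatogonia and looked up after its values were seen, was kept at 248 to 356 FPKM in brain, but testis, at 20.4 to 26.5 FPKM, overlapped ovary at 20.0 to 44.6 FPKM. *Usp13* and *Nedd4* were called lower (log2 differences -2.3 ± 0.192 and -1.01 ± 0.0883).

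Chromatin regulators gave 16 kept (10 under upper-quartile scaling) and 10 past all 6 tests of 59. *Chd5*, a nucleosome remodeler needed for sperm chromatin compaction, was at 21.8 to 26.9 FPKM in brain and at 47.1, 48.2 and 45.3 FPKM in testis, and no other library exceeded 0.879 FPKM. *Prdm8* was at 3.09 to 4.47 FPKM in brain and at 5.51, 5.32 and 5.04 FPKM in testis, with at most 0.121 FPKM elsewhere. *L3mbtl1* and *L3mbtl4* passed at low levels, up to 1.31 and 4.73 FPKM. *Rcor1* and *H1f0* were called lower (log2 differences -1.04 ± 0.0887 and -1.2 ± 0.121). *Rest*, the repressor of neuronal genes, looked up after its values were seen, was lowest in brain at 2.26 to 3.69 FPKM but stood at 7.46 to 8.18 FPKM in testis, within the range of colon.

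Peptide precursors and their processing enzymes gave 12 kept genes of 53 but only *Pnoc* and *Trh* past all 6 tests. *Trh*, the precursor of thyrotropin-releasing hormone, was at 2.4 to 7.53 FPKM in brain and at 0.102, 0.21 and 0.141 FPKM in testis, the latter from 4 to 9 counts in a library, and 1 count was found in the other 14 libraries together. *Trh* did not pass without testis replicate 2 or 3 or without ovary replicate 2 or 3, and *Pnoc* not without ovary replicate 2 or male heart replicate 2. Both also failed under upper-quartile scaling, with female brain, heart and colon alone and against a 2-fold difference, and *Trh* with the male libraries alone and with all 29 libraries in the fit. *Nts* and *Pcsk6* (a locus shared with *Gm45213*) were called lower (log2 differences -2.13 ± 0.393 and -2.08 ± 0.128).

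The members differed in which organ was higher. The rule did not use this difference, but it did use the brain and testis levels that make it up. Of the 1538 genes past all 6 tests, 750 (48.8%) were called higher in testis than in brain and 448 (29.1%) higher in brain. Over all tested genes these shares were 43.1% and 28.4%, so the split of the members was close to the background. A further 340 (22.1%) had no call, against 28.6% of all tested genes, and 510 (33.2%) lay within 2-fold between the organs, against 34.1% of all tested genes. Testis exceeded brain in 18 of 22 kept intraflagellar transport genes (median log2 1.63) and in 11 of 13 kept tubulin-modifying enzymes (median 1.05). Brain exceeded testis in 16 of 19 kept adhesion genes (median -3.08) and in 12 of 14 kept microtubule-associated and tubulin genes (median -2.25).

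**Figure D4:**
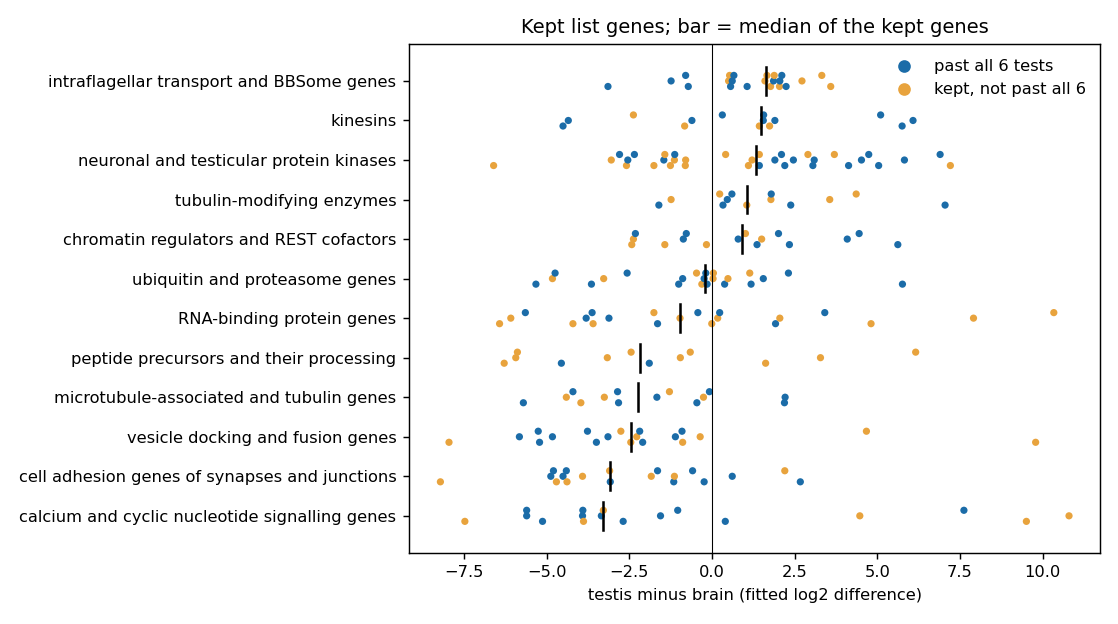
Fitted log2 difference of testis minus brain for each kept gene of the 12 lists, colored by whether it passed all 6 tests, with a bar at the list's median. The medians run from 1.63 for intraflagellar transport to -3.29 for calcium and cyclic nucleotide signalling.

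Cerebellum was left out of the fit, but the heart, colon and ovary levels it is set against are those that chose the members to be low there, which raises the shares that follow. Its mean log2 CPM was above heart, colon and ovary in 1488 of the 1538 genes (96.7%) and in 3897 of the 4543 kept genes (85.8%), against 31.6% of all tested genes. It was below all 3 in 3 of the 1538 genes, against 21.2% of those tested. The median difference of cerebellum from brain was -0.43 on the log2 scale in the genes past all 6 tests. It was -0.28 in the kept genes and 0.0 over all tested genes. The members were also chosen to be high in brain, which bears on this difference. *Rims2* went the other way, at 92.2 to 234 FPKM in cerebellum. Of the members at 5 FPKM or more, the 4 lowest in cerebellum relative to the other tissues, picked after their values were seen, were *Smpd3*, *Ypel1*, *Pacs1* and *Dynll1*. All 4 failed 1 or more of the 6 tests under upper-quartile scaling, with female brain, heart and colon alone and against a 2-fold difference. *Dynll1* also failed with the sexes pooled into 5 tissue groups, and *Pacs1* with male brain, heart and colon alone and without the filter on low counts. *Pacs1* passed all 6 in 8 of the 23 fits that each left out 1 library, *Smpd3* in 18, *Ypel1* in 21 and *Dynll1* in 23. *Smpd3*, a neutral sphingomyelinase, was at 1.35 to 2.03 FPKM in cerebellum against 5.96 to 11.9 FPKM in brain and 7.26, 8.31 and 7.3 FPKM in testis. *Ypel1* was at 1.91 to 2.61 FPKM in cerebellum, 5.58 to 7.42 FPKM in brain and 60.7 to 65.4 FPKM in testis.

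**Figure D5:**
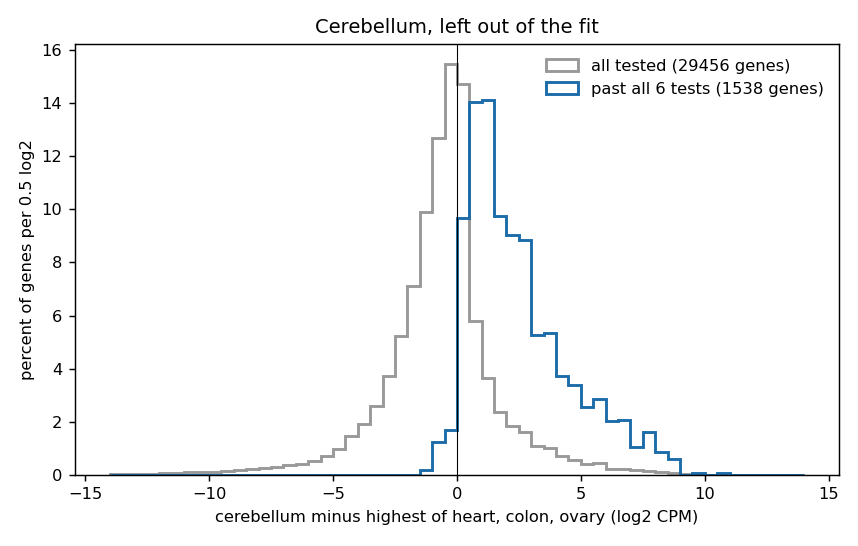
Distribution of the difference of cerebellum from the highest of heart, colon and ovary (log2 CPM, bins of 0.5) for all 29456 tested genes and for the 1538 genes past all 6 tests, each as a percentage of its own set. Most of the members lie to the right of 0.

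Male and female brain were compared within the fit. Over all tested genes 11 (0.0373%) were called in either direction by edgeR, and 0 of the 1538 genes past all 6 tests were among them. At an unadjusted *P* under 0.05 there were 34 of the 1538 (2.21%), against 4.84% of all tested genes, and no other tool was run on this comparison. *Kdm5d*, a histone demethylase gene of the Y chromosome, was the 1 kept gene called. It was at 2.59 to 3.0 FPKM in male brain, at most 0.00256 FPKM in female brain and 0 in ovary, and at 0.955 to 1.14 FPKM in testis, below its highest values in heart and colon.

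By annotation, 1187 of the 1538 genes past all 6 tests were protein-coding (6.55% of 18129 tested), 281 were lncRNAs (4.61% of 6102) and 33 were pseudogenes (1.56% of 2120). Among kept genes the order of the first pair was reversed, at 16% of coding genes and 19.0% of lncRNAs, and pseudogenes were again lower at 8.68%. The lncRNAs with the largest margins were *Gm47119*, *4933412O06Rik*, *Gm36937* and *Gm20642*. *Gm47119* (chr17:46476507-46477659) was at 11.2 to 20.8 FPKM in brain and at 25.9, 25.0 and 28.7 FPKM in testis, and was at 0 in all heart and ovary libraries. *Gm36937* lies antisense to exons of *Kcnj9* and was at 5.08 to 7.08 FPKM in brain and at 5.98, 5.5 and 5.38 FPKM in testis. *4933412O06Rik* was at 1.42 to 2.66 FPKM in brain and at 4.22, 4.35 and 3.91 FPKM in testis. *Gm20642* ranged from 0.596 to 2.14 FPKM in brain.

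Of the pseudogenes, *1700086L19Rik*, a transcribed pseudogene (chr12:74284242-74295945), was at 19.0 to 36.8 FPKM in brain and at 71.8, 71.0 and 61.5 FPKM in testis, and no other library of the fit exceeded 0.628 FPKM. Its cerebellum range was 0.536 to 2.79 FPKM, under every brain library. *Gm18609*, a processed pseudogene, was at 2.95 to 4.98 FPKM in brain and at 9.64, 8.23 and 7.38 FPKM in testis. *Gm6970* and *AC154707.1*, also processed, had margins of 2.27 and 2.24. *Gm6970* did not pass without ovary replicate 1 or 2, under upper-quartile scaling, with female brain, heart and colon alone, or against a 2-fold difference. Reads of processed pseudogenes can be shared with near-identical parent genes, so these levels are uncertain.

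Members past all 6 tests also differed in gene length, chromosome and long-read models. Counts rise with exon length and the long reads came from the same organs, so neither measure is independent of the rule. Their coding genes spanned a median of 33.7 kb of genome against 18.9 kb for tested coding genes, and their exons a median of 3547 bases against 3180. In kept coding genes these medians were 27.1 kb and 3352 bases. Among the autosomes and the X chromosome, X held the lowest share, 33 of 1010 tested genes (3.27%). The autosomes ran from 4.03% on chromosome 6 to 6.72% on chromosome 16. Among coding genes, long-read gene models were available for 78.4% of the members, 72.2% of the kept genes and 69.4% of those tested.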

How the data were processed

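RNA-seq libraries were made by the authors from rRNA-depleted total RNA with a strand-specific (dUTP) kit. The deposited matrix holds raw read counts per gene, not normalized, for 29 libraries. According to the submitters' processing notes the tools were FastQC 0.11.8, MultiQC 0.9, HISAT2 2.0.5 and featureCounts 1.6.3 on mm10. The study's methods quantified mouse genes over combined Iso-Seq and ENSEMBL models and kept uniquely mapped reads. The passage opens with developmental data and does not name these libraries. Whether counting used strand is not given in the sources used here. Samples were grouped by the tissue and sex in the labels.

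Counts were tested with edgeR 4.0.16 (R 4.3.3): filterByExpr by group, TMM scaling, and a quasi-likelihood fit of 8 groups of tissue and sex over 23 libraries, each tissue the mean of its groups. Two-sided tests were corrected by the Benjamini-Hochberg method across the 29456 tested genes, with a threshold of 0.05. FPKM divide counts by the library total and by the union of exons, without TMM. TMM factors were 1.34 to 1.5 in ovary, 0.839 to 0.866 in testis and 0.617 to 1.09 in heart. Cerebellum was compared as log2 CPM (TMM over 29 libraries, prior count 2). The test script was checked on simulated data. The Iso-Seq samples have no column in the matrix and were not used beyond the gene models.

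Named genes were taken by rule: the 12 coding genes past all 6 tests at 5 FPKM or more with the largest margins, 4 lncRNAs and 4 pseudogenes at 1 FPKM or more, up to 4 genes per list past all 6 tests and up to 2 called lower, the genes at the edge of the rule, and the largest differences between organs and between sexes. The members and lists were chosen with earlier results of these data known. Where a symbol had several loci, the locus with the most counts was taken. Alternatives were DESeq2 1.42.0, upper-quartile scaling, no filter, a 2-fold threshold, pooled sexes, all 29 libraries, each sex alone, no ovary, 2 blocks and leaving out each library. A floor of 3 counts covers counting error only.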

Additional observations from a re-analysis of the deposited data

Results flagged for a closer look

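In 5 of 100 sets of 6 brain libraries checked for the named genes, 1 library stood apart from the other 5 by Dixon's criterion, and chance alone gives about 1 in 20. *Ttbk1*, the tau kinase, reached 11.5 FPKM in male brain replicate 3, against 6.29 to 7.81 FPKM in the other brain libraries. *Fsip2*, a gene of the sperm fibrous sheath, was at 0.0174 FPKM in the same library, against 0 to 0.00367 FPKM in the others. *Kif1c* reached 26.6 FPKM in female brain replicate 1, against 17.2 to 20.1 FPKM. The locus of *Gm45213* and *Pcsk6* reached 5.27 FPKM in that library, against 3.13 to 3.86 FPKM. *Gm38260* reached 1.4 FPKM in male brain replicate 1, against 0.542 to 0.808 FPKM.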

How the results depend on the processing

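Called genes numbered 10750 higher, 4543 kept, 1538 past all 6 tests and 3464 below. A test against a 2-fold difference left 6623 higher, 775 past all 6 tests and 2144 below. Upper-quartile scaling left 1017 past all 6 tests, all of them among the 1538, and gave 5362 below. Under it the kept share of kept and below genes fell from 56.7% to 38.6%, the median of all genes moved from 0.29 to -0.11, and *Rfx5* reversed to -0.30. Without ovary 4 tests remained in place of 6, and 2361 genes passed them. DESeq2 gave 12305 higher, 4598 kept and 1838 past all 6 tests, 1510 of them shared with edgeR. The 2-fold test and the 4 tests change the count by construction, and the cause of the other shifts was not tested. Leaving out each library in turn gave 10214 to 11105 higher, 4277 to 4802 kept, 1363 to 1660 past all 6 tests and 3316 to 3547 below. Of 72 named genes past all 6 tests that were followed, 64 passed without each of the 23 libraries and 60 under each of 11 alternatives, with 62 passing under upper-quartile scaling. Other genes named above, such as *Ift88*, *Kif3a*, *Mak* and *Ptbp2*, were not among the 72. Of the 12 intraflagellar transport and BBSome genes past all 6 tests, 6 passed under that scaling.

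Same-numbered libraries did not deviate together (0 of 33 pairs with r over 0.1), so the numbers were not taken to pair them. With the replicate block 10551 genes were higher, 4557 kept, 1373 past all 6 tests (1349 shared) and 3335 below, *Ick* and *Agbl4* (adjusted *P* = 0.082 and 0.0529, edgeR) were no longer called, and *Pacs1* no longer passed all 6 tests. The labels also give each library a numeric code, and libraries sharing its leading digit within a sex correlated over 0.1 in 1 of 33 pairs (r up to 0.183). With that digit as a block 1405 passed all 6 tests. The rarest members rested on few counts: *Trh* had 4 to 9 counts in a testis library.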
